A study of Mus musculus with 4 samples.

Results

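Immediate early response genes are those that cells transcribe within minutes of a signal, before any new protein has been made. The 10 genes described here were Fos, Jun, Junb, Egr1, Nr4a1, Klf6, Myc, Ier2, Ier3 and Dusp1, each taken as the gene probe whose name on the array was that symbol, and they were 10 of the 30439 genes or transcripts measured. Each had 1 probe, and the probe of Fos was spotted 10 times on every array.

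The arrays measured RNA from livers of male C57BL/6J mice that had eaten a high-fat diet for 24 weeks, begun at 4 weeks of age according to the methods. Drp1LiKO mice carried Drp1 flox/flox alleles and an Alb-Cre transgene, in which the albumin promoter drives Cre recombinase in hepatocytes. Drp1, the GTPase that divides mitochondria, is thus deleted in those cells, and its state in other cells of the liver was not measured. Control (Cont) mice were Drp1 flox/flox littermates without the transgene, called wild type in the labels. There was 1 array for each of 4 conditions: Cont and Drp1LiKO livers with no feeding state in their labels, called fasted here after the methods, and Cont and Drp1LiKO livers of mice fasted for 17 h and then refed for 4 h. Fasted livers were taken in the morning and refed livers in the early afternoon, so refeeding and time of day cannot be told apart. How many mice contributed RNA to an array was not given in the sources used here.

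With 1 array per condition there were no replicates, so no difference between a pair of arrays was tested, and each log2 difference is given with the standard error (SE) that the scanner's own error model assigns to the 2 signals. That SE covers the measurement of the spots and none of the variation between mice. Levels are log2 of the processed signal relative to the array's 75th percentile, which was 461 in Cont fasted, 722 in Drp1LiKO fasted, 357 in Cont refed and 526 in Drp1LiKO refed liver. From 48.7% to 58.2% of gene spots were well above background, the lower shares being on both Cont arrays, and no spot was saturated. The Drp1 gene Dnm1l gave a genotype difference of -0.21 (SE 0.20) in fasted and -0.12 (SE 0.20) in refed liver, but where its probe lies relative to the deleted part was not given, so it does not check the labels. The liver labels were checked with hepatocyte markers, of which 5 of the 5 on the array (Alb, Ttr, Apoa1, Serpina1a and Cps1) were well above background on every array.

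The group acts in layers. Growth factors, hormones, cytokines and stress signals reach the nucleus through mitogen-activated protein kinases and cAMP, where factors such as SRF and CREB that are already present switch on the early genes. Fos and the Jun proteins pair into the transcription factor AP-1, while Egr1, Nr4a1, Klf6 and Myc are transcription factors in their own right, and Dusp1 removes phosphate from the kinases that began the response. In liver the same genes are known for their response to partial hepatectomy, acute injury and feeding.

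RefSeq promoters (GRCm38.p6) were held for 7 of the 10 members, and Egr1, Ier2 and Myc had no entry. Below are the 250 bases before the start of Fos, Jun, Dusp1, Klf6 and Nr4a1, shown because they hold letters that CREB or Jun proteins are known to bind (Junb, with 1 copy of TGACG, is not shown), written 5′ to 3′ along the gene's own strand. Capitals mark TGACG on either strand (CGTCA when it lies on the other), the core that CREB and its relatives bind, TGACATCA, the form known from the Jun promoter, which ATF and Jun proteins bind, and in Fos the TATA box TATAAA.
Fos, chr12:85473640-85473889, forward strand: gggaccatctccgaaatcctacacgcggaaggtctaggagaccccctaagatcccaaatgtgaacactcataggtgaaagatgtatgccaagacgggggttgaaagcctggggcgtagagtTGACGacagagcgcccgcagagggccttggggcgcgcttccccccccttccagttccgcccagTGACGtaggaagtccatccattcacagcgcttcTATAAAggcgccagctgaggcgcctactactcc
Jun, chr4:95052223-95052472, reverse strand: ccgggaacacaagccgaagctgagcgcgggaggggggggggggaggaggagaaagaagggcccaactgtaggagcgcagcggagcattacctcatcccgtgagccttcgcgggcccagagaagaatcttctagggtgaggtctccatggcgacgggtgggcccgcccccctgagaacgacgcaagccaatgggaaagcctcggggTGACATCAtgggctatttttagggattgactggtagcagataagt
Dusp1, chr17:26508473-26508722, reverse strand: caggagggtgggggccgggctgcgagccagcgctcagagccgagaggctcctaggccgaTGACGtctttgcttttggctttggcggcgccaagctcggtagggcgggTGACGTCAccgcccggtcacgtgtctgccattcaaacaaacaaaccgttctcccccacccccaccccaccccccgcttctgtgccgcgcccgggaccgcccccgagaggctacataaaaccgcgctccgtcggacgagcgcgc
Klf6, chr13:5861239-5861488, forward strand: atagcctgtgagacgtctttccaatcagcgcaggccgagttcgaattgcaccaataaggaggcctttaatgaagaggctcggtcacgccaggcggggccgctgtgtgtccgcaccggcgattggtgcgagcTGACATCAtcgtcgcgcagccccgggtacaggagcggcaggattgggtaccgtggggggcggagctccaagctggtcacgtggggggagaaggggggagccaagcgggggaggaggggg
Nr4a1, chr15:101266596-101266845, forward strand: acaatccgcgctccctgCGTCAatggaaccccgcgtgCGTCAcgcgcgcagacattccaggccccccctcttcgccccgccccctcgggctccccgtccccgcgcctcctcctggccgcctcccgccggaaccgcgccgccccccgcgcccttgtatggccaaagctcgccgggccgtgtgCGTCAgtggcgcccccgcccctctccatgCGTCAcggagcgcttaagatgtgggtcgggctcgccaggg

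TGACG on either strand was found in Fos, Junb, Dusp1 and Nr4a1, 4 of 7 members, and in 17.8% of 32851 promoter stretches of the same length. Nr4a1 held 4 copies, Dusp1 3 and Fos 2. A pair of the Dusp1 copies overlap on opposite strands as the full palindrome TGACGTCA, found in 1.55% of all promoters. Jun and Klf6 each held 1 copy of TGACATCA on either strand, which 2.93% of promoters held. The EGR motif GCGNGGGCG was found in Nr4a1 alone of the 7 (4.7% of promoters), and TATAAA on the gene's strand in Fos alone (7.59%). The AP-1 motif TGANTCA (6.75%) and the CArG box of SRF (1.47%), searched on both strands, were in none of the 7 stretches, which says only that those letters are not in these windows.

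In both feeding states most of the early genes had a higher signal in Drp1LiKO than in Cont liver. In fasted liver 5 of the 10 were at least 2-fold higher in Drp1LiKO (Fos, Egr1, Klf6, Myc and Ier3) and none was 2-fold lower, where 8.06% of the 18040 genes detected on either array of the pair were called higher and 5.19% lower. In refed liver the same 5 and Nr4a1 were called higher, 6 of 10, against 8.05% of 17446 genes, and none was called lower, against 6.33%. The log2 difference was above 0 for 9 of 10 members in each state. The members' median was 1.26 in fasted and 1.16 in refed liver, beside medians of -0.08 and -0.04 over all genes. These medians include differences with a dim Cont signal. Over members well above background on both arrays the median was 0.84 in fasted (8 members) and 1.23 in refed liver (7 members). All genes so measured had medians of -0.12 and -0.08.

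Part of these counts rested on Cont signals too dim to measure. Of the 10 members, 7 were well above background on all 4 arrays, Junb on 3, and Fos and Ier3 on 2, both times on the Drp1LiKO arrays only. A dim signal was next read at its own value or at the array's detection bound, whichever was higher. The detection bound was the dimmest probe called well above background, so a difference read this way is not a firm lower limit. Fos in Cont fasted liver lay above that probe and was still not well above background. By that reading 4 members were called higher in fasted liver (Fos, Egr1, Klf6 and Myc), where 4.53% of all genes were called higher and 5.04% lower. The call of Fos used its own dim Cont signal. In refed liver 4 were called higher (Egr1, Klf6, Myc and Nr4a1), where 4.03% of all genes were called higher and 6.33% lower. Egr1, Klf6 and Myc were thus at least 2-fold higher in Drp1LiKO in both states with every signal measured.

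**Figure D1:**
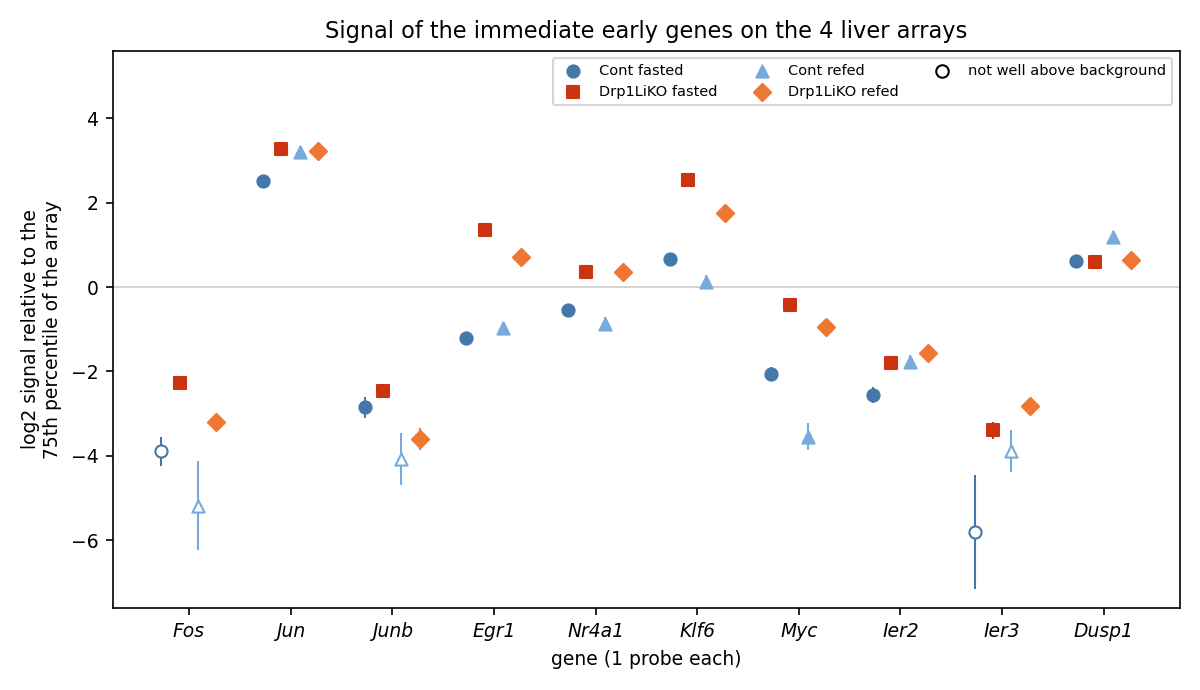
Level of each gene on the 4 arrays, as log2 of the processed signal relative to the array's 75th percentile (points, 1 probe per gene; bars, 1 SE of the scanner's error model; open symbols, not well above background). For Egr1, Nr4a1, Klf6 and Myc both Drp1LiKO arrays lie above both Cont arrays, while Jun and Dusp1 stay within 0.76 and 0.59 log2 over the 4 arrays; levels of different probes are not comparable with each other.

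Fos, the AP-1 partner whose transcript is among the first to appear after a stimulus, had a processed signal of 31.2 in Cont fasted, 149 in Drp1LiKO fasted, 10.1 in Cont refed and 57.1 in Drp1LiKO refed liver (probe at chr12:86817900-86817959, mm9). Both Drp1LiKO signals were above both Cont signals, and the Cont signals were not well above background. The fasted genotype difference was 1.61 (SE 0.38), 3.05-fold higher in Drp1LiKO liver. The dim Cont fasted signal lay above the dimmest probe called well above background there (27.3), so this bound is the difference itself. In refed liver the difference of 1.97 (SE 1.07) gave a bound of 1.27-fold. Under the normexp correction, which compresses dim signals, the differences were 0.56 and 0.17, below both bounds and not called.

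The 10 Fos spots show how far repeated spots on 1 array agreed. In Cont fasted liver they ran from 25.4 to 37.5 with a median of 31.2, and 2 of 10 were well above background. In Drp1LiKO fasted liver they ran from 141 to 164, all 10 well above background, and in Drp1LiKO refed liver from 53.2 to 64.2, again all 10. In Cont refed liver they ran from 7.50 to 13.0 and none was well above background. No spot of a Drp1LiKO array was as low as any spot of a Cont array, and the SD of log2 signal over the spots was 0.17 in Cont fasted, 0.07 in Drp1LiKO fasted, 0.34 in Cont refed and 0.10 in Drp1LiKO refed liver. These spots share 1 RNA sample per array and are not replicates of the condition.

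**Figure D2:**
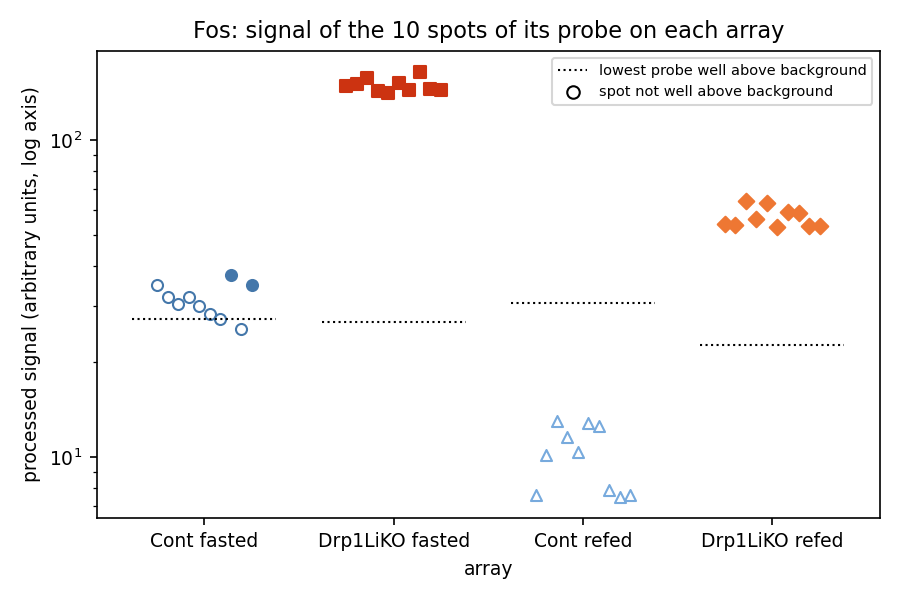
Processed signal (arbitrary units, log axis) of each of the 10 Fos spots on the 4 arrays; open symbols are spots not well above background and dotted lines the lowest probe signal called well above background on that array. The Drp1LiKO spots (141 to 164 fasted, 53.2 to 64.2 refed) lie above all Cont spots, and the Cont refed spots lie below the array's detection bound of 30.5.

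Jun, the partner of Fos in the classic AP-1 dimer, had a processed signal of 2629 in Cont fasted, 6993 in Drp1LiKO fasted, 3270 in Cont refed and 4941 in Drp1LiKO refed liver (chr4:94716928-94716987, mm9). After scaling, the levels were 2.51, 3.28, 3.20 and 3.23 in the same order, so Cont fasted liver stood below the other 3 arrays, which were close together. The genotype difference was 0.76 (SE 0.20), 1.70-fold, in fasted liver and 0.04 (SE 0.20) in refed liver.

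Junb, a Jun relative that in many settings restrains the activity of Jun, was dim throughout, at 63.9 in Cont fasted, 131 in Drp1LiKO fasted, 21.2 in Cont refed and 43.2 in Drp1LiKO refed liver (chr8:87501881-87501940, mm9). Both fasted signals were above both refed signals, and the Cont refed signal was not well above background. Its genotype difference was 0.38 (SE 0.30) in fasted liver and 0.47 (SE 0.67) in refed liver, and both turned slightly negative, to -0.04 and -0.23, under the normexp background correction.

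Egr1, a zinc-finger factor switched on by growth factors and stress, had the largest measured genotype difference of the members in fasted liver. Its processed signal was 199.7 in Cont fasted, 1832 in Drp1LiKO fasted, 181 in Cont refed and 859 in Drp1LiKO refed liver. Both Drp1LiKO signals were far above both Cont signals, which were close to each other. The difference was 2.55 (SE 0.21), or 5.85-fold, in fasted liver, the 283rd most positive of 18040 genes, and 1.68 (SE 0.21), or 3.21-fold, in refed liver, the 627th of 17446.

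Nr4a1, an orphan nuclear receptor also called Nur77 that in liver takes part in the control of glucose production, had a processed signal of 315 in Cont fasted, 931 in Drp1LiKO fasted, 195 in Cont refed and 675 in Drp1LiKO refed liver (chr15:101105071-101105130, mm9). Its scaled level was nearly the same on both Drp1LiKO arrays, 0.37 and 0.36, and lower on both Cont arrays, -0.55 and -0.87. The genotype difference was 0.92 (SE 0.21), 1.89-fold, in fasted liver and 1.23 (SE 0.21), 2.35-fold, in refed liver, on either side of the 2-fold threshold, and the refed value was 0.95 under the normexp correction.

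Klf6, a Krüppel-like zinc-finger factor also expressed early in activated hepatic stellate cells, had a processed signal of 730 in Cont fasted, 4179 in Drp1LiKO fasted, 391 in Cont refed and 1777 in Drp1LiKO refed liver (chr13:5869371-5869430, mm9). Within each genotype the refed signal was the lower one, and the lowest Drp1LiKO signal was above the highest Cont signal. Between genotypes the difference was 1.87 (SE 0.20), 3.65-fold, in fasted liver and 1.63 (SE 0.21), 3.09-fold, in refed liver.

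Myc, the factor that drives ribosome production and growth, had a processed signal of 110 in Cont fasted, 534 in Drp1LiKO fasted, 30.5 in Cont refed and 272 in Drp1LiKO refed liver (chr15:61821417-61821476, mm9). Again both Drp1LiKO arrays were above both Cont arrays and each refed array below its fasted counterpart. It differed between genotypes by 1.63 (SE 0.22), 3.09-fold, in fasted liver and 2.60 (SE 0.35), 6.05-fold, in refed liver. The Cont refed signal was the lowest of any probe called well above background on that array, and the refed difference became 1.33 under the normexp correction.

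Ier2, a nuclear protein of the early response whose function is less well known, had a processed signal of 78.2 in Cont fasted, 207 in Drp1LiKO fasted, 105 in Cont refed and 179 in Drp1LiKO refed liver (chr8:87186214-87186273, mm9). As with Jun, the scaled level was lowest in Cont fasted liver, at -2.56, and lay between -1.80 and -1.55 on the other 3 arrays. The genotype difference was 0.75 (SE 0.23), 1.69-fold, in fasted liver and 0.22 (SE 0.22) in refed liver.

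Ier3, a stress-induced regulator of cell survival also called IEX-1, had a processed signal of 8.26 in Cont fasted, 68.9 in Drp1LiKO fasted, 24.0 in Cont refed and 75.03 in Drp1LiKO refed liver (chr17:35959528-35959587, mm9). It was well above background on the Drp1LiKO arrays alone. The genotype difference was 2.41 (SE 1.37) in fasted liver, with a bound of 1.61-fold, and 1.09 (SE 0.53) in refed liver, with a bound of 1.67-fold. Under the normexp correction they were 0.09 and 0.04, below both bounds and not called.

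Dusp1, the phosphatase that switches off p38, JNK and ERK kinases, was the only member with no genotype difference above 0 in the scaling used here. Jun (0.04, SE 0.20) and Ier2 (0.22, SE 0.22) were also close to 0 in refed liver. The processed signal of Dusp1 was 705 in Cont fasted, 1094 in Drp1LiKO fasted, 814 in Cont refed and 824 in Drp1LiKO refed liver (listed position chr17:26642526-26642536, mm9, an interval of 11 bases). The scaled levels were 0.61, 0.60, 1.19 and 0.65 in that order, so Cont refed liver stood above the other 3 arrays. The genotype difference was -0.01 (SE 0.20) in fasted liver, of a sign that depended on the scaling, and -0.54 (SE 0.20) in refed liver.

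**Figure D3:**
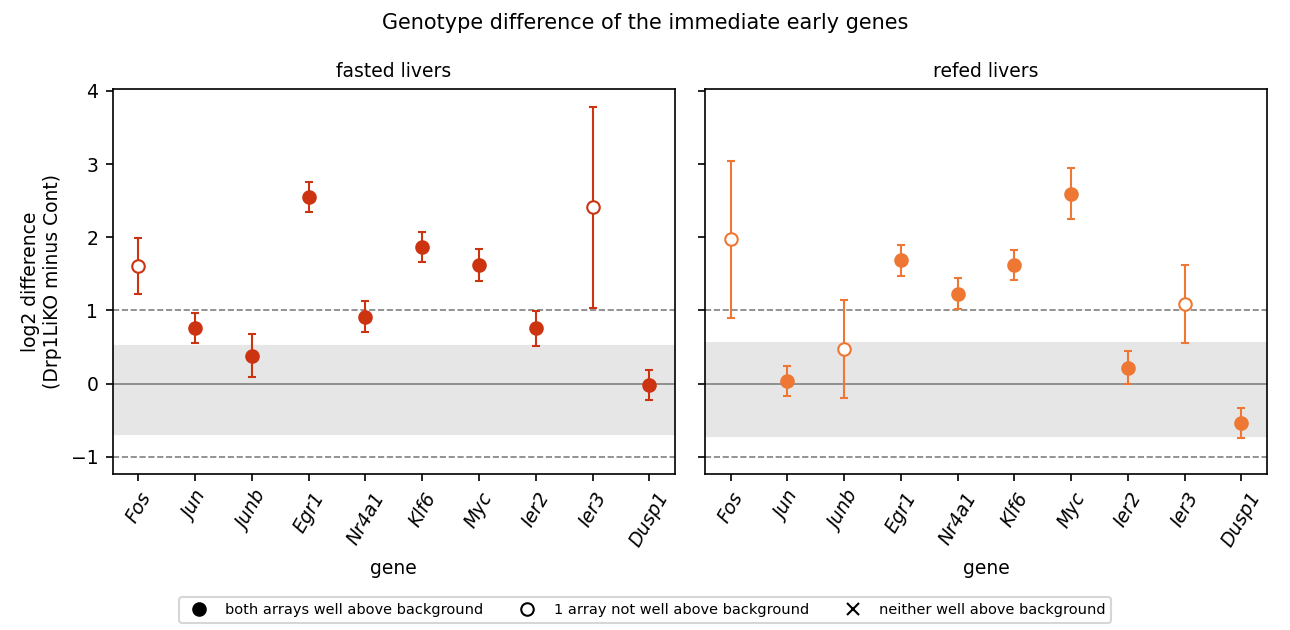
Genotype difference of each gene (log2, Drp1LiKO minus Cont) in fasted and refed liver, with bars of 1 SE of the scanner's error model; open points have 1 array not well above background, dashed lines mark 2-fold, and the grey band spans the 10th to 90th percentile of all genes. Egr1, Klf6 and Myc lie above the 2-fold line in both states with both arrays measured, and Dusp1 is the only gene at or below 0.

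The fit over all 4 arrays set the genotype effect beside a variance taken only in part from the amount by which it differed between the feeding states. Limma was fitted to 16744 genes with additive terms for genotype and for feeding. It left 1 residual degree of freedom, with any interaction counted as error. Limma moderated that variance with 2.449 prior degrees of freedom drawn from all genes. Each SE and p thus rests more on the other genes than on the gene's own difference between the states. All 10 members passed the fit's filter of 2 arrays well above background, Fos and Ier3 through the Drp1LiKO arrays only. None had an adjusted p under 0.05, as no gene did (0% called, smallest adjusted p 0.0614). The genotype effect was 1.75 (SE 0.15) for Klf6 with an adjusted p of 0.0753, and 2.12 (SE 0.27) for Egr1 and 2.11 (SE 0.29) for Myc with 0.102 each in limma. Nr4a1 followed with 1.07 (SE 0.16) and 0.104. At an unadjusted limma p under 0.05 these 4 were higher in Drp1LiKO, of the 7 members detected on every array, and none was lower, where 11.6% of all genes were higher and 16.7% lower. No effect is given for Fos, Ier3 and Junb, whose dim signals have no exact level.

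This outcome depended on the set of genes, on the scaling and background correction, and on the variance model. When limma was fitted only to the 14447 genes detected on every array, 7 members remained and 4 of them were called higher in Drp1LiKO: Klf6 (adjusted p 0.0188), Egr1 (0.0333), Myc (0.034) and Nr4a1 (0.0367), where 8.4% of all genes were called in either direction. The same 4 were called with the normexp correction (2.97% of all genes called) and with an intensity trend in the variance (2.83%). With scaling to the array median Egr1 and Klf6 were called (1.91%), but no member was called with quantile normalization or in the authors' normalized values. Fos also passed the threshold with median scaling. It had entered the fit through the Drp1LiKO arrays only, so that call is not read as a result.

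Markers of other liver cells differed between the arrays as well. The summed level of 7 macrophage markers, all well above background, was 9476 and 10586% of the 75th percentile in Cont fasted and refed liver and 10901 and 18452% in Drp1LiKO fasted and refed liver. The 5 hepatocyte markers summed to 226005 and 283033% in Cont and to 154075 and 193398% in Drp1LiKO liver, so both Drp1LiKO sums were below both Cont sums. The sums of 7 stellate cell markers (Des dim in Cont refed liver) were 4600 and 5199% in Cont and 6594 and 5923% in Drp1LiKO liver, and those of the 6 cholangiocyte markers 71.7 and 81.3% against 132 and 125%. Endothelial sums were lower on both Drp1LiKO arrays, at 4566 and 3902% in fasted and refed liver against 5445 and 5757%. Neutrophil sums were 9251 and 5504% in Cont and 6612 and 5805% in Drp1LiKO liver. Adipocyte sums were 434 and 2193% against 17.4 and 35.7%, with Adipoq, Plin1 and Retn dim on every array. Cfd was the only 1 of the 4 adipocyte markers well above background, so these sums describe mainly that gene. Of the cholangiocyte markers 3 to 5 of 6 were well above background, with Epcam dim on all 4 arrays. The part of these cells in the early gene values was not tested, and in whole liver a different number of cells of a type cannot be told apart from a different amount of RNA per cell.

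Between fasted and refed liver fewer of the early genes differed by 2-fold. In Cont liver 8 members were detected on either array of the pair, and 2 of these were at least 2-fold lower after refeeding (Myc and Junb; 5.83% of 16437 genes) and none was 2-fold higher (4.47% of genes). In Drp1LiKO liver all 10 could be compared, and 1 was 2-fold lower (Junb; 7.15% of 18329 genes) and none 2-fold higher (5.61%). With dim signals at their bound, Myc alone was called in Cont liver, where 3.69% of genes were called in each direction, and Junb alone in Drp1LiKO liver, where 4.74% were called lower and 4.51% higher. The members' median difference was -0.05 in Cont and -0.28 in Drp1LiKO liver, beside 0.09 and 0.08 over all genes. Each refed array served in 1 refeeding and 1 genotype difference, so these values are not independent of those above.

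Myc had a refeeding difference of -1.49 (SE 0.36), 2.80-fold lower, in Cont liver and of -0.52 (SE 0.21), 1.43-fold lower, in Drp1LiKO liver. Junb gave -1.22 (SE 0.66) in Cont liver, with a bound of 1.62-fold lower because the refed signal was not well above background. In Drp1LiKO liver Junb gave -1.14 (SE 0.31), 2.20-fold lower. Klf6 lay below 0 in both genotypes, at -0.53 (SE 0.21) and -0.78 (SE 0.20). For Fos the difference in Drp1LiKO liver was -0.93 (SE 0.25), or 1.90-fold lower, and none could be given in Cont liver, where both signals were dim. Ier3 likewise had only the Drp1LiKO value, 0.58 (SE 0.27).

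For Jun, Ier2 and Dusp1 the larger refeeding difference was in Cont liver. Jun was 0.68 (SE 0.20) higher after refeeding in Cont and -0.04 (SE 0.20) in Drp1LiKO liver. Ier2 gave 0.79 (SE 0.25) and 0.25 (SE 0.21), and Dusp1 0.57 (SE 0.21) and 0.05 (SE 0.20). Egr1 gave 0.23 (SE 0.21) in Cont and -0.63 (SE 0.20) in Drp1LiKO liver, and Nr4a1 -0.32 (SE 0.21) and -0.01 (SE 0.20). The refeeding difference in Drp1LiKO minus that in Cont liver was -0.73 (SE 0.29) for Jun, -0.54 (SE 0.32) for Ier2, -0.53 (SE 0.29) for Dusp1, -0.86 (SE 0.30) for Egr1 and 0.97 (SE 0.42) for Myc; with 1 array per condition these were not tested.

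**Figure D4:**
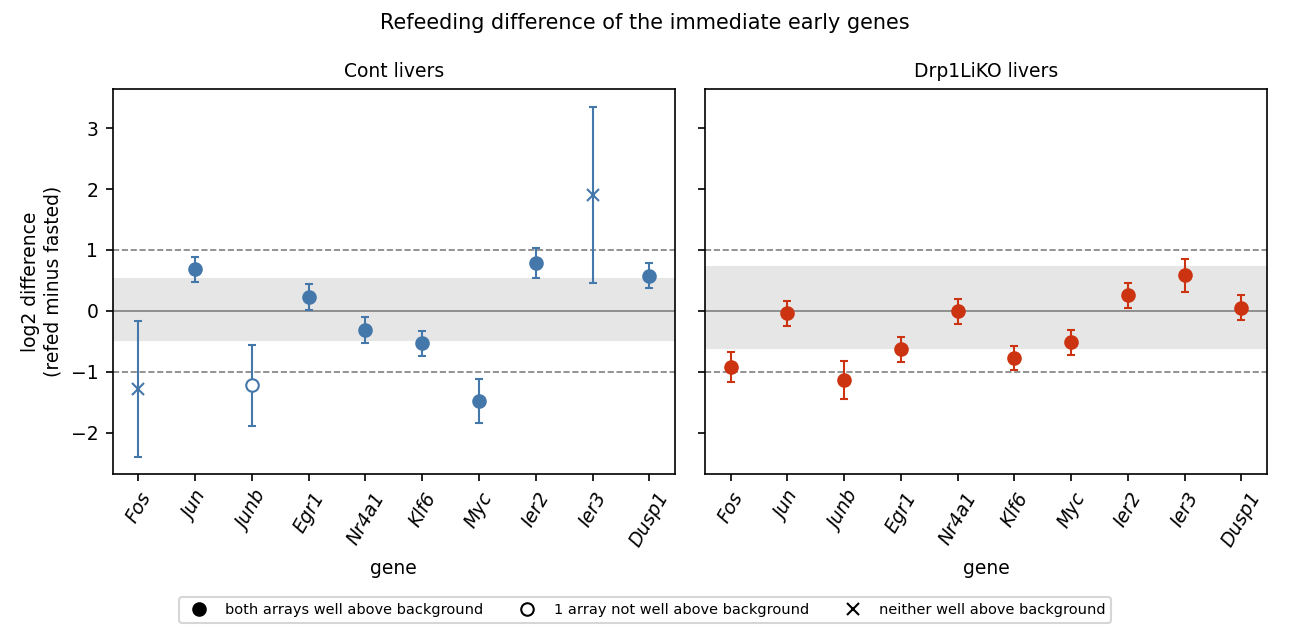
Refeeding difference of each gene (log2, refed minus fasted) in Cont and Drp1LiKO liver, with bars of 1 SE of the scanner's error model; open points have 1 array and crosses both arrays not well above background, dashed lines mark 2-fold, and the grey band spans the 10th to 90th percentile of all genes. Junb lies below the lower 2-fold line in both genotypes and Myc in Cont liver only.

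In limma no member had a refeeding effect with an adjusted p under 0.05, nor did any gene (0% called, smallest adjusted p 0.169). Of the 7 members detected on every array, Klf6 (-0.65, SE 0.15) had an adjusted p of 0.169 and Myc (-1.0003, SE 0.29) one of 0.175 in limma. Both were lower after refeeding at an unadjusted limma p under 0.05, and none of the 7 was higher, where 10.6% of all genes were lower and 15.8% higher. No alternative called a member for refeeding.

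The nearest relatives of the members differed among themselves. Atf3, a stress-induced partner of Jun, was 5.58 (SE 0.24) higher in Drp1LiKO than in Cont fasted liver and 4.42 (SE 0.21) higher in refed liver, with levels of -2.52 in Cont fasted, 3.06 in Drp1LiKO fasted, -1.08 in Cont refed and 3.35 in Drp1LiKO refed liver. Fosb and Jund gave 0.64 (SE 0.32) and 0.78 (SE 0.20) in fasted liver, and -0.02 (SE 0.31) and 0.18 (SE 0.20) in refed liver, as Jun did, close to 0. Fosl2 gave 0.58 (SE 0.22) and 0.52 (SE 0.24), and Fosl1 was well above background in Drp1LiKO refed liver only. Egr2, a relative of Egr1, was well above background in Drp1LiKO fasted liver only, with a bound of 1.22 log2 above Cont fasted liver. Egr3 and Nr4a3 were not well above background on any array. Nr4a2 gave 0.06 (SE 0.29) in fasted and -0.72 (SE 0.37) in refed liver.

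Genes that act on the members or with them were measured too. Srf, the factor that binds the CArG box, gave 0.03 (SE 0.21) and -0.10 (SE 0.21), Max, the obligate partner of Myc, 0.05 (SE 0.20) and 0.07 (SE 0.20), and Nab2, a repressor of Egr1 that Egr1 itself switches on, 0.83 (SE 0.20) and 0.08 (SE 0.20) in fasted and refed liver. Per1, a clock gene that also answers acute signals, gave -0.20 (SE 0.20) and -0.06 (SE 0.20) between genotypes, and lay lower on both refed arrays than on both fasted arrays (1.84 in Cont and 1.65 in Drp1LiKO fasted, 1.02 and 0.96 refed).

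Across 11 lists of 178 related genes, all of them on the array, 28 of 161 that could be compared were at least 2-fold higher in Drp1LiKO fasted than in Cont fasted liver and 3 lower. In refed liver 23 of 155 were higher and 6 lower. The background shares were those given for the members, 8.06% higher and 5.19% lower in fasted, and 8.05% and 6.33% in refed liver. In refeeding 15 of 146 were higher and 12 lower in Cont liver, and 10 of 163 higher and 20 lower in Drp1LiKO liver, where 4.47% of all genes were higher and 5.83% lower in Cont, and 5.61% and 7.15% in Drp1LiKO liver.

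Genes known as targets of AP-1 and Egr1 had a median genotype difference of 0.91 in fasted and 0.76 in refed liver, beside -0.08 and -0.04 over all genes. The fasted median includes Icam1 and Mmp13, whose Cont signals were dim. In fasted liver 7 of 17 were called higher and none lower, where 8.06% and 5.19% of all genes were. Ccnd1, the cyclin that opens the cell cycle, stood at 1.98 (SE 0.20). Icam1, an adhesion molecule, stood at 1.63 (SE 0.38) with its Cont signal dim, and Mmp13, a collagenase, at a bound of only 0.11. In refed liver 6 of 16 were called higher and 1 lower, where 8.05% and 6.33% of all genes were. The calls were led by Sqstm1, the autophagy adaptor p62, at 1.46 (SE 0.20), Mt1, a metal-binding protein, at 1.34 (SE 0.20), and Timp1, a protease inhibitor, at -1.48 (SE 0.22). Several of these genes answer to other factors too.

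Genes known as targets of Myc, mostly of ribosome assembly and growth, had medians of 0.22 and 0.59. None of 20 was called in fasted liver, and 3 of 20 were called higher in refed liver: Nop58 at 1.19 (SE 0.20), Nop56 at 1.11 (SE 0.20) and Gnl3, a nucleolar protein, at 1.04 (SE 0.21). Of the Myc network, 2 of 8 genes were called higher in fasted liver, Mycl at 1.44 (SE 0.35) and Mxd3, for which no bound above 0 could be set. In refed liver 1 of 8 was called lower, Mga at -3.41 (SE 0.28). The refeeding difference of Mga was 2.87 (SE 0.28) in Cont and -0.98 (SE 0.29) in Drp1LiKO liver.

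The epidermal growth factor ligands and Hgf, which signal into the pathway, were mostly dim. In fasted liver 4 of 6 were called higher in Drp1LiKO, with bounds of 1.91 log2 for Areg, 1.14 for Btc and 0.49 for Tgfa and none for Egf. In refed liver 1 of 5 was called higher, Btc at a bound of 0.52. Of the receptors and kinases below them none of 24 was called in fasted and 1 of 22, Rps6ka3, in refed liver, with medians of -0.03 and -0.13. Of SRF, CREB, MEF2 and their cofactors 1 of 14 (Mef2c) and 1 of 13 (Creb1) were called higher, each with the Cont signal dim. The bound was 0.37 log2 for Mef2c, and for Creb1 none above 0 could be set.

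Like Dusp1, its relatives and the Sprouty proteins dampen kinase signalling. Of the other dual-specificity phosphatases and the Sprouty proteins 3 of 12 were called higher in fasted liver: Dusp4 at a bound of 2.37 log2, Dusp10 at a bound of 0.69 and Spry1 at 1.14 (SE 0.22). In refed liver 3 of 12 were higher, Dusp4, Dusp10 and Dusp14 at bounds of 1.03, 1.26 and 1.29. Spry2 was lower by a bound of -3.56, and was well above background on the Cont refed array only.

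Among 40 other early response genes, 9 were called higher and 3 lower in fasted liver, and 4 higher and 2 lower in refed liver, with medians of 0.07 and 0.01. Gadd45a, a growth-arrest gene, was 2.64 (SE 0.22) higher in fasted liver and Ier5, a relative of Ier2, 1.87 (SE 0.44) higher with its Cont signal dim. Socs2, a feedback inhibitor of growth hormone signalling, had values of -1.84 (SE 0.21) in fasted and -2.05 (SE 0.24) in refed liver. In refed liver Tnfaip3, an inhibitor of NF-κB signalling, was 1.56 (SE 0.24) higher and Pim1, a cytokine-induced kinase, had a value of -1.35 (SE 0.39). Also called were Pim1 and Phlda1, lower in fasted liver, and Btg2, Rgs2 and Ier5, higher in refed liver. The other 7 genes called higher in fasted liver had differences of 1.14 to 1.78. The other Krüppel-like factors had medians of 0.00 and -0.28, with none of 8 called in fasted liver and Klf4 (1.14, SE 0.31) and Klf9 (-1.003, SE 0.20) called among 7 in refed liver. Of the remaining AP-1 genes, Batf and Mafk were called in refed liver, at 1.24 (SE 0.30) and 1.04 (SE 0.23).

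The other early genes were also compared between fasted and refed liver, with 5.83% (Cont) and 7.15% (Drp1LiKO) of all genes lower and 4.47% and 5.61% higher. In Cont liver 9 of 39 were called lower and 6 higher, with a median of -0.20, and in Drp1LiKO liver 10 of 40 lower and 1 (Bhlhe40, a clock gene) higher, with a median of -0.52. The Myc targets had medians of 0.28 in Cont and 0.52 in Drp1LiKO liver, with 1 of 20 (Srm) and 5 of 20 (Srm, Nop56, Tfrc, Odc1 and Nolc1) called higher and none lower. Myc itself was lower on both refed arrays than on the fasted array of the same genotype.

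**Figure D5:**
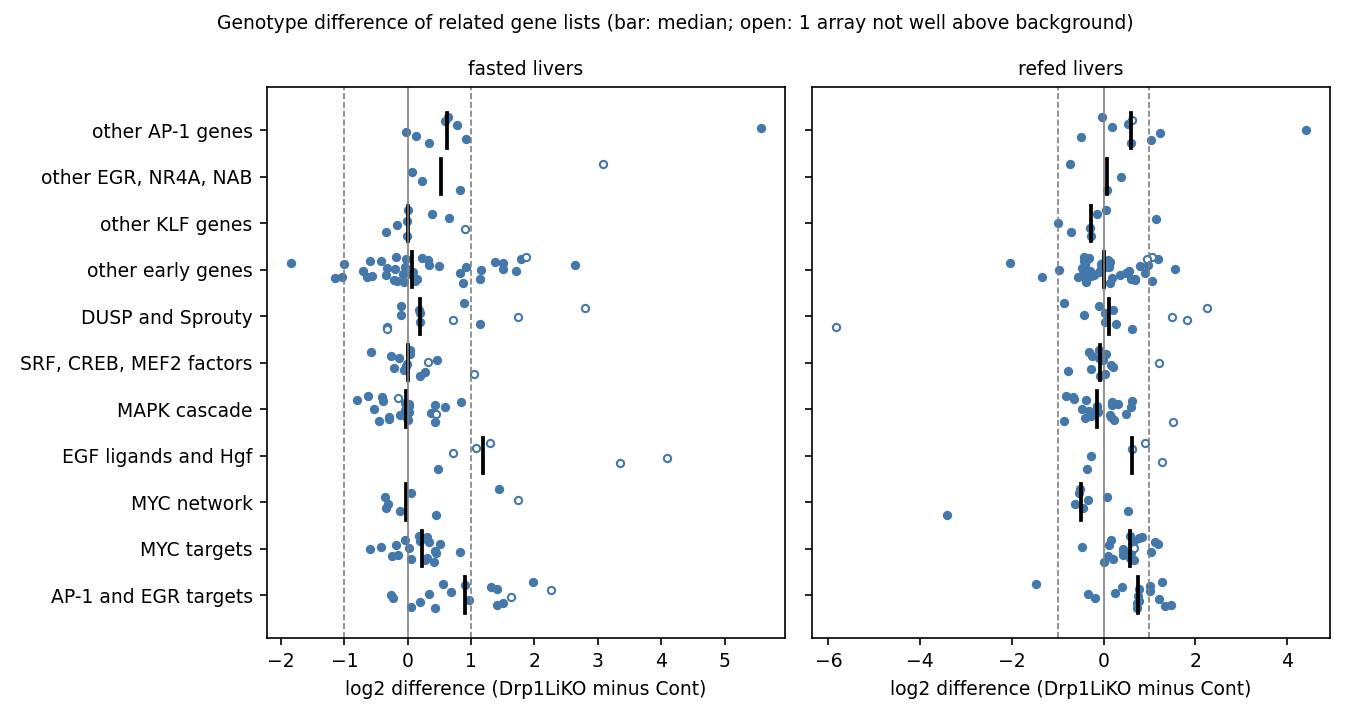
Genotype difference (log2, Drp1LiKO minus Cont) of the genes of 11 lists related to the early genes, in fasted and refed liver; each point is a gene, open points have 1 array not well above background, vertical bars are list medians and dashed lines mark 2-fold. The AP-1 and Egr1 targets have medians of 0.91 and 0.76, the kinase cascade of -0.03 and -0.13, and Atf3 is the point at 5.58 in fasted and 4.42 in refed liver. Medians include the open points, such as Icam1 and Mmp13 among the fasted AP-1 and Egr1 targets.

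For the 5 members measured on all 4 arrays whose level spanned at least 1 log2, the genes with the most similar profile were sought among 14440 others, by the Euclidean distance between the 4 centred log2 levels. Nearest to Egr1 were Smox (0.35), Cyb5r1 (0.39) and Ajuba (0.40), and nearest to Klf6 Raet1c (0.21) and Slc35f2 (0.22). Nr4a1 lay close to Snhg12 (0.09), Snx10 (0.13) and Niban1 (0.14), and Ier2 to Nkrf (0.08) and Cd5 (0.09). Myc had its nearest neighbour in Oas2 (0.35), followed at a greater distance by Cib3 (0.63) and Neat1 (0.64). With 4 points a profile, a small distance is a description of these arrays and no more.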

How the data were processed

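Total RNA of mouse liver was measured on 4 Agilent 1-colour arrays, 1 per condition, all on 1 slide and in 1 scan. The authors deposited scanner output in which the processed signal of each spot is a background-corrected intensity on a linear scale. It was written by Feature Extraction 10.7.1.1 per the file headers (9.5.1.1 per the labels). They also deposited a table of normalized intensities, likewise on a linear scale. A comparison of its log2 with the scanner values showed that it was quantile normalized. The settings of that normalization were not given in the sources used here. The study's methods and the labels differ in the array design and the RNA kit they name. The labels say that the raw data of the fasted pair are shared with an earlier submission.

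Control spots were left out, as were 37 of 39429 probes whose every spot was an outlier on an array. Spots of a probe were averaged, log2 was taken and the array's 75th percentile subtracted; for genes with several probes, the probe detected on the most arrays was used, then the one of highest mean signal. A probe was well above background where at least 0.5 of its spots were so called. Names came from the files, updated through RefSeq where accessions matched (26727 of 28358). A difference was called at 2-fold where the brighter side was well above background; where the other side was not, a bound was set with that side at its own signal or at the dimmest probe still well above background there, whichever was higher (27.3, 26.6, 30.5 and 22.5 in Cont fasted, Drp1LiKO fasted, Cont refed and Drp1LiKO refed liver), and no fold is given where both sides were dim. The number of arrays, 4, limits the precision. SDs over 399 probes spotted 10 times had medians of 0.09 to 0.13 log2.

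Genes were also fitted with limma 3.58.1 in R 4.3.3, with Benjamini-Hochberg adjustment over all genes tested and a test of the fit on simulated data; other steps used Python 3.11.15 with pandas 2.3.3 and numpy 2.4.6. Alternatives were median scaling, quantile normalization, normexp background correction (offset 50), the authors' log2 values, the median over probes, stricter and no filters on dim probes, a 1.5-fold threshold, other limma models and, added after seeing the data, dim sides at their bound. All 10 members are named; of each related list at most the 3 genes with the largest called difference in each genotype comparison are named by rule, with direct relatives of the members whatever their values; Tgfa, Btg2, Rgs2, Phlda1, Bhlhe40 and the Myc targets named for refeeding were named after their values were seen. Marker lists of 2 further cell types are not reported here. The members and lists were chosen with earlier results of these data known.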

Additional observations from a re-analysis of the deposited data

Results flagged for a closer look

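Jun and Egr1 were singled out because their refeeding differences ran in opposite directions in the genotypes and differed by at least 2 SE of the scanner's error model; with 1 array per condition neither difference was tested. For Jun the value in Drp1LiKO minus that in Cont liver was -0.73 (0.68 in Cont, -0.04 in Drp1LiKO liver), and the Drp1LiKO value turned to 0.05 with scaling to the array median. For Egr1 it was -0.86 (0.23 in Cont, -0.63 in Drp1LiKO liver).

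The same criterion, also untested, was applied to the related genes named by rule and to the direct relatives, where measured on every array. Of these, 4 had genotype differences of opposite direction in the feeding states. The rule takes the largest called differences, and the other genes of the lists were not searched, so 4 is not a count over the lists. The refed difference minus the fasted one was 1.26 for Batf (-0.02 fasted, 1.24 refed), -3.85 for Mga (0.44 and -3.41), -1.98 for Mycl (1.44 and -0.54) and -2.05 for Timp1 (0.56 and -1.48).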

How the results depend on the processing

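The members' differences were recomputed under 5 alternatives: scaling to the median, quantile normalization, normexp, the authors' normalized values and the median over probes. Of 200 values, 178 stayed within 1 SE of the values given and 22 moved further, 18 of them under normexp. No called difference changed sign. Each member had 1 probe, so the 40 values under the median over probes could not move and test nothing. The authors' values were themselves quantile normalized, so they largely repeat that alternative. The 178 is thus not a count of independent checks. Of differences that were not called, the sign turned for Junb between genotypes in both states and Dusp1 on refeeding in Drp1LiKO liver (normexp), Dusp1 between genotypes in fasted liver (normexp, quantile and the authors' values), Jun on refeeding in Drp1LiKO liver (median) and Nr4a1 there (median, quantile and the authors' values). In fasted liver the median genotype difference over all genes measured on both arrays was -0.12 and moved to -0.02 with quantile normalization.

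Members called higher in Drp1LiKO fasted liver went from 5 to 3 under normexp (Egr1, Klf6 and Myc), to 3 with both sides well above background and to 8 at 1.5-fold, and in refed liver from 6 to 3 under normexp (again Egr1, Klf6 and Myc). Members called lower on refeeding went in Cont liver from 2 to 0 under normexp and to 1 with both sides well above background or dim sides at their bound, and in Drp1LiKO liver from 1 to 0 under normexp and to 4 at 1.5-fold. Members called higher on refeeding in Cont liver went from 0 to 1 with no filter and to 2 at 1.5-fold. The share of all genes was not computed under normexp, at 1.5-fold, with no filter or with both sides well above background. Those counts show how the members' calls moved, and not whether they stood apart from all genes. Members called by limma for genotype went from 0 to 3 with median scaling (1.91% of all genes called). Fos, among those 3, passed the filter through the Drp1LiKO arrays only, and its call is not read as a result. The count went to 4 under normexp (2.97%), to 4 with genes detected on every array (8.4%) and to 4 with an intensity trend (2.83%). It stayed at 0 under quantile normalization, the authors' values, the median over probes, no filter and a model without feeding state. The cause was not tested beyond what each alternative changes. The normexp offset compresses differences of dim probes by its construction, and dim Cont signals limit what can be said of Fos, Ier3 and Junb. Leaving out an array would leave a condition with none. No paired analysis was possible because each group has 1 array.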
